A study of Homo sapiens with 16 samples.

Results

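The BCL2 family apoptosis regulators described here are 10 genes, chosen by symbol from the 34228 genes of a table of estimated RNA-Seq read counts. The 5 survival members are BCL2, BCL2L1 (BCL-X), BCL2L2 (BCL-W), MCL1 and BCL2A1 (BFL-1). The 5 death members are the BH3-only genes BCL2L11 (BIM), BMF, PMAIP1 (NOXA) and BBC3 (PUMA), and the effector BAX.

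RNA was measured in 451Lu-R and 1205Lu-R, human melanoma lines resistant to BRAF inhibitors (BRAFi-R). Per the study's methods, resistant lines were selected with rising doses of the BRAF inhibitor PLX4032 and cultured with 5 μM PLX4032 so that they stayed resistant. Each line received 2.5 μM corin or its vehicle DMSO for 24 h, with 2 libraries in each of the 4 groups. PLX4032 was not part of either treatment. Corin is a synthetic inhibitor that joins a histone deacetylase inhibitor to an inhibitor of the demethylase LSD1 and acts on the CoREST corepressor complex. Each resistant state was represented by 1 cell line, so a difference between the lines cannot be told apart from any other property of those lines. A further 8 libraries of the series received PLX4032 with or without corin and were not analysed here.

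BCL2 family proteins meet at the outer membrane of the mitochondrion. Survival members hold the effectors BAX and BAK1 in check, and BH3-only proteins bind survival members through their BH3 domain or activate the effectors directly. Active effectors open the membrane and release cytochrome c, which starts the caspase cascade. In melanocytes and melanoma, BIM and BMF are known to be held down by BRAF and MAPK signaling, and BCL2A1 is a known target of the lineage factor MITF.

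The promoters of 4 members are shown as examples of different responses. BCL2L11 rose in both lines and further in 1205Lu-R, PMAIP1 rose in both and further in 451Lu-R, BCL2A1 fell in one line and rose in the other, and the effector BAX fell in both. Each sequence is the 250 bases before the RefSeq start site in GRCh38.p14, written 5′ to 3′ on the strand of the gene. Capitals mark matches, on either strand, to CACGTG (E-box), CATGTG (the core of the M-box), TGANTCA (AP-1), GTAAACA (forkhead) and GGGCGG (GC box).
BCL2L11 (chr2:111120664-111120913, plus strand): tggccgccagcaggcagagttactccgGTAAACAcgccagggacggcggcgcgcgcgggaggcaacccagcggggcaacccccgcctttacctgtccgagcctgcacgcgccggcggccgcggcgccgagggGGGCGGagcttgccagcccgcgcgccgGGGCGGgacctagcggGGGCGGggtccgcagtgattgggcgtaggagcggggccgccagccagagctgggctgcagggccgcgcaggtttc
PMAIP1 (chr18:59899746-59899995, plus strand): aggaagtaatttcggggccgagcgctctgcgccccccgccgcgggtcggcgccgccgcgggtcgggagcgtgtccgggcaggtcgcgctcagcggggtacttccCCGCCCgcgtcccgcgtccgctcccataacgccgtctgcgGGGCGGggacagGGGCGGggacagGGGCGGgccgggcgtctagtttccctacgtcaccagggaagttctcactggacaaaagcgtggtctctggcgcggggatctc
BCL2A1 (chr15:79971197-79971446, minus strand): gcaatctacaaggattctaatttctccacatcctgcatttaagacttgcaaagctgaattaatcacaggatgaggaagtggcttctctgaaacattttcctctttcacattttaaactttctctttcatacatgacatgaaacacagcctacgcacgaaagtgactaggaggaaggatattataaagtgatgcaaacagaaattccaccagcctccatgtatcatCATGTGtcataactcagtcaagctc
BAX (chr19:48954625-48954874, plus strand): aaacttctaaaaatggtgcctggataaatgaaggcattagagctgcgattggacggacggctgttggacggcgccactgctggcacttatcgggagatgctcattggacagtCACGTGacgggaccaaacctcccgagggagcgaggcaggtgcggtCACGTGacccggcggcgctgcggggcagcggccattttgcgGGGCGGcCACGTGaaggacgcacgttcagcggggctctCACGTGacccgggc

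The BCL2L11 window held 3 GC boxes and 1 forkhead match, with a GC content of 76.8% and 34 CpG dinucleotides. The PMAIP1 window held 4 GC boxes, with 72.8% GC and 36 CpG. The BCL2A1 window stood apart in base composition, with 38.8% GC, 2 CpG and a CATGTG that starts 25 bases before the start site. The BAX window held 4 E-boxes and 1 GC box, at 62.8% GC with 25 CpG. No 2 of the marked matches overlapped. Over all 35116 RefSeq promoter windows of this length, the median was 58% GC and 11 CpG. CACGTG was present in 6.34% of them, CATGTG in 9.42%, TGANTCA in 6.57%, GTAAACA in 2.98% and GGGCGG in 42.6%. A match is a description of letters and was not tested as a binding site. Promoters of 8 of the 10 members were matched by symbol, and MCL1 and BCL2L2 were not.

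Library totals lay between 9516687 and 11797788 estimated counts. Genes at 1 CPM or more (counts per 1000000 counts of the library) numbered 12867 to 13104 with DMSO and 14201 to 14427 with corin. The 8 melanocyte lineage markers summed to 13654 to 13727 CPM in 451Lu-R with DMSO. In 1205Lu-R with DMSO they summed to 8.29 to 8.56 CPM, with SOX10, TYR and TYRP1 at 0, and SOX10 and TYR were at 0 with corin too. Markers of undifferentiated melanoma (AXL, NGFR, EGFR and WNT5A) summed to 8.02 to 8.07 CPM in 451Lu-R with DMSO and 371 to 379 with corin, and to 1251 to 1265 and 803 to 815 in 1205Lu-R. NGFR alone went from a mean of 1.06 to 351 CPM in 451Lu-R and from 5.86 to 202 in 1205Lu-R, where AXL went from 962 to 476 and WNT5A from 194 to 37.5. Markers of other cell types (PTPRC, PECAM1, EPCAM and KRT14) summed to at most 9.81 CPM in any library. The labels do not say whether replicates were separate cultures, so p-values measure only the spread between these libraries. In bulk RNA, a change in the share of cells that express a gene cannot be told apart from a change in RNA per cell.

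Levels were first ordered per length, as CPM per kb of exon, since CPM alone cannot be compared between genes. In 451Lu-R with DMSO, the survival members BCL2A1 (73.9 ± 7.74 CPM per kb, mean ± SD, n = 2), MCL1 (26.3 ± 0.0646) and BCL2L1 (23.8 ± 0.422) led the family. The BH3-only genes lay between 2.62 ± 0.245 for BBC3 and 4.89 ± 0.256 CPM per kb for BCL2L11, and BCL2 was lowest at 2.32 ± 0.108. With corin, MCL1 led at 49.0 ± 1.37 CPM per kb, followed by PMAIP1 at 29.9 ± 2.71. BCL2A1 (21.6 ± 2.11) and BCL2L11 (19.9 ± 0.458) came next, and their libraries overlapped, so their order was within the spread. No other pair of neighbours overlapped in any group. In 451Lu-R with corin, however, the lower BAX library and the higher BMF library both read 8.113 CPM per kb.

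In 1205Lu-R with DMSO, MCL1 led at 59.4 ± 1.08 CPM per kb, and the death members BAX (31.9 ± 1.51) and PMAIP1 (26.8 ± 3.13) came next. BCL2L11 (1.33 ± 0.0969), BCL2 (1.05 ± 0.0160), BBC3 (0.521 ± 0.0258) and BMF (0.287 ± 0.0635) were at the foot of the order. With corin, PMAIP1 led at 75.0 ± 3.47 CPM per kb, above MCL1 at 68.1 ± 1.24 and BCL2A1 at 28.3 ± 0.20. BBC3 was then lowest, at 0.697 ± 0.0528 CPM per kb.

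The comparison of corin with DMSO asked how CoREST inhibition changed each member within a line. In 451Lu-R, corin raised 4 of the 10 members (MCL1, BCL2L11, BMF and PMAIP1) at an adjusted p under 0.05, where 41.3% of all 14530 genes tested were called higher. It lowered 4 (BCL2L1, BCL2L2, BCL2A1 and BAX), where 38.6% of all genes were called lower. In 1205Lu-R, 5 members rose (MCL1, BCL2A1, BCL2L11, BMF and PMAIP1) against 40.4% of the 14563 genes tested, and 3 fell (BCL2L1, BCL2L2 and BAX) against 37.8%. With a change of at least 2-fold also required, 3 members rose and 2 fell in 451Lu-R, where 22.2% and 13.3% of all genes did. In 1205Lu-R, 4 rose and 2 fell under that rule, where 22.0% and 9.80% of all genes did. The counts of called members were thus close to the background of each comparison, and the description below rests on the single genes. All 10 members passed the filter on low counts in every comparison.

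**Figure D1:**
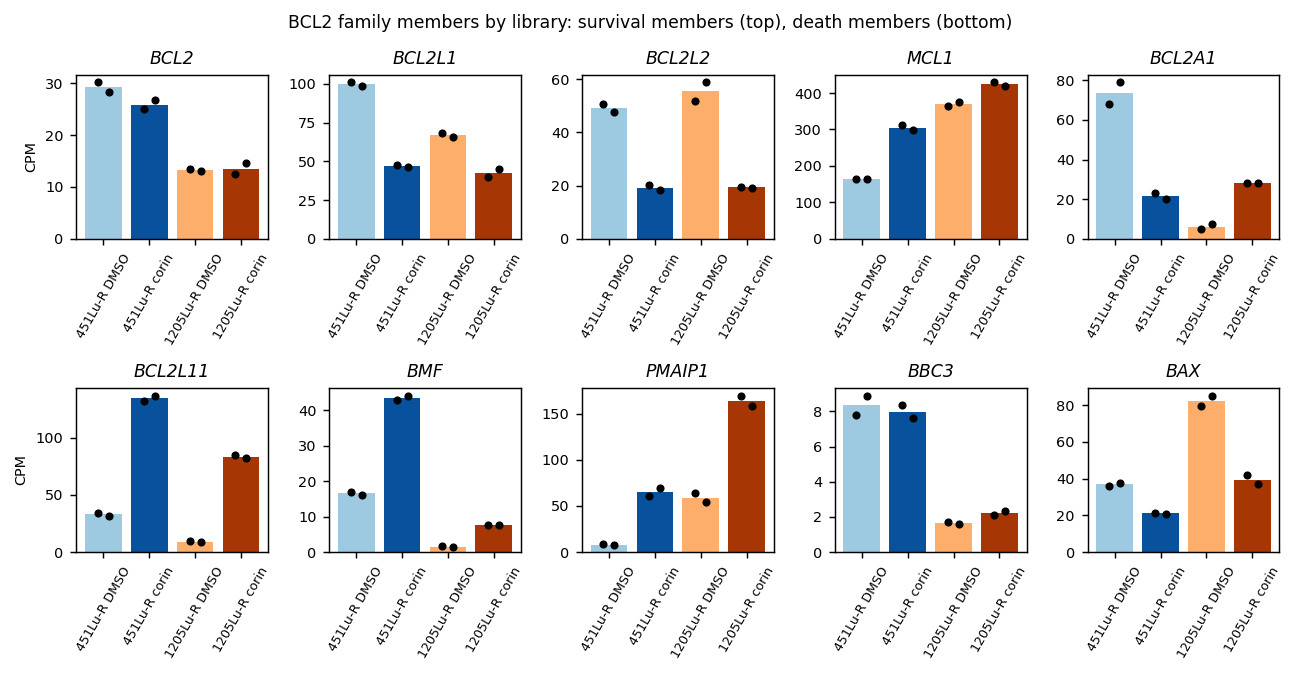
Level of each member in CPM (linear axes from 0, one scale per gene) in both cell lines with DMSO or corin. Bars are means of 2 libraries and points are the libraries. PMAIP1 ran from 7.66 CPM in a 451Lu-R DMSO library to 169 CPM in a 1205Lu-R corin library, and BCL2A1 fell with corin in 451Lu-R and rose in 1205Lu-R.

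Among the survival members, BCL2L1 and BCL2L2 fell in both lines, MCL1 rose in both, BCL2A1 moved in opposite directions, and BCL2 passed the test in neither. BCL2L1, whose main product BCL-XL blocks both BAX and BAK1, went in 451Lu-R from 101 and 98.5 CPM under DMSO to 47.4 and 46.6 under corin. The 1205Lu-R values were 68.3 and 65.6 CPM, then 39.9 and 45.0. The groups did not overlap in either line, and the log2 fold change was -0.99 (SE 0.0529, adjusted p = 1.10e-12) in 451Lu-R and -0.73 (SE 0.0631, adjusted p = 7.30e-10) in 1205Lu-R. Counts per gene do not separate BCL-XL from the short, proapoptotic splice form of BCL2L1, and the same holds for the splice forms of MCL1 and BCL2L11. BCL2L1 shares 1735 bp of exon with ABALON on the opposite strand, which had at most 0.0904 CPM in any library.

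BCL2L2 encodes BCL-W, a survival protein close to BCL2. It fell from 50.6 and 47.7 CPM to 20.2 and 18.3 in 451Lu-R and from 51.9 and 58.8 CPM to 19.6 and 19.1 in 1205Lu-R. Corin libraries of both lines thus lay at nearly one level, 2.38-fold and 3.01-fold below DMSO. The log2 fold changes were -1.25 (SE 0.0809, adjusted p = 2.16e-11) and -1.59 (SE 0.0821, adjusted p = 8.21e-14). BCL2L2 shares 815 bp of exon with the read-through gene BCL2L2-PABPN1 on the same strand, so the split of reads between them is uncertain. With both genes summed, the log2 fold changes were -1.17 in 451Lu-R and -1.52 in 1205Lu-R.

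MCL1 encodes a short-lived survival protein that binds NOXA and BIM. Its 451Lu-R libraries read 164 and 164 CPM under DMSO against 311 and 299 under corin, a 2.0-fold rise (log2 fold change 1.0, SE 0.0312, adjusted p = 1.88e-16). In 1205Lu-R it started higher, at 365 and 375 CPM, and reached 429 and 419 with corin. That rise of 1.09-fold (log2 fold change 0.12, SE 0.0297, adjusted p = 7.32e-04) passed the test but was small beside the 451Lu-R response. With library size only as the scaling, the median over all genes in 1205Lu-R moved from 0.034 to 0.109. The size of so small a rise thus depends on the scaling. MCL1 shares 328 bp of exon with ADAMTSL4-AS1 on the same strand, which had at most 0.315 CPM in any library.

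BCL2A1 encodes BFL-1, an inducible survival protein. It fell in 451Lu-R from 68.1 and 79.0 CPM with DMSO to 23.0 and 20.0 with corin (log2 fold change -1.66, SE 0.0872, adjusted p = 7.60e-13). Its 1205Lu-R libraries climbed from 4.97 and 7.34 CPM to 28.3 and 28.0 (log2 fold change 2.12, SE 0.135, adjusted p = 3.57e-12). The lines stood 10.9-fold apart with DMSO and much closer with corin. The 1205Lu-R DMSO level rests on 55 and 78 estimated counts.

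MITF, a known regulator of BCL2A1, moved the same way in each line. Its 451Lu-R libraries dropped from 782 and 804 CPM to 287 and 286 (log2 fold change -1.37, SE 0.0242, adjusted p = 2.44e-20). Those of 1205Lu-R climbed from 8.04 and 6.31 CPM to 16.5 and 15.0 (log2 fold change 1.05, SE 0.142, adjusted p = 7.13e-07). Of the 8 melanocyte lineage markers, which include MITF, 7 fell and 1 rose in 451Lu-R, and the 3 tested in 1205Lu-R rose. With corin, all 8 together summed to 11702 to 11748 CPM in 451Lu-R and to 23.2 to 26.5 CPM in 1205Lu-R. The part of MITF or of the lineage markers in the BCL2A1 change was not tested. With corin, MITF averaged 287 CPM in 451Lu-R and 15.8 in 1205Lu-R, beside 21.5 and 28.1 CPM for BCL2A1.

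BCL2, the founding survival member, read 30.2 and 28.3 CPM in the 451Lu-R DMSO libraries and 25.0 and 26.8 in the corin libraries. For 1205Lu-R the values were 13.4 and 13.1 CPM under DMSO, then 12.4 and 14.6. Its log2 fold change was -0.08 (95% confidence interval -0.25 to 0.09, adjusted p = 0.381) and -0.04 (-0.30 to 0.22, adjusted p = 0.784), so any change lay within those intervals.

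Among the BH3-only members, BCL2L11, BMF and PMAIP1 rose in both lines and BBC3 passed the test in neither. The median log2 fold change of the 4 was 1.81 in 451Lu-R and 1.80 in 1205Lu-R, beside 0.03 over all genes tested in each line. For the 5 survival members the medians were -0.99 and -0.04. These medians cover the listed members only. Among other BH3-only genes, BAD fell in both lines (-1.18 and -1.71) and BIK rose in both. BID fell in 451Lu-R (-0.68) and did not pass in 1205Lu-R (-0.11). HRK did not pass in 451Lu-R (-0.02) and rose in 1205Lu-R (2.71), there from a mean of 0.121 CPM with DMSO.

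BCL2L11 encodes BIM, which binds every survival member and can activate BAX. It rose from 34.2 and 31.8 CPM to 132 and 137 in 451Lu-R, 4.35-fold (log2 fold change 2.12, SE 0.0544, adjusted p = 7.94e-18). The 1205Lu-R libraries climbed from 9.40 and 8.47 CPM to 85.1 and 81.9, 8.85-fold (log2 fold change 3.15, SE 0.0822, adjusted p = 5.12e-19). No DMSO library came near a corin library in either line. BCL2L11 shares 727 bp of exon with MIR4435-2HG on the opposite strand, and the strandedness of the libraries is not given in the sources used here. MIR4435-2HG itself ran from 43.6 to 48.0 CPM over the 451Lu-R libraries and from 92.5 to 102 over the 1205Lu-R libraries.

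BMF encodes a BH3-only protein that is held at the cytoskeleton by dynein light chain. It rose from 17.1 and 16.0 CPM to 43.1 and 44.2 in 451Lu-R, 2.82-fold (log2 fold change 1.49, SE 0.0821, adjusted p = 1.63e-12). The much lower 1205Lu-R libraries climbed from 1.81 and 1.32 CPM to 7.57 and 7.56, 4.56-fold (log2 fold change 2.19, SE 0.243, adjusted p = 3.78e-08). The 1205Lu-R corin libraries still lay below both 451Lu-R DMSO libraries. With 20 and 14 estimated counts in the 1205Lu-R DMSO libraries, its change there had the widest interval of the 8 members called, from 1.68 to 2.69.

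PMAIP1 encodes NOXA, which binds MCL1 and BFL-1. In 451Lu-R it rose from 8.26 and 7.66 CPM to 61.1 and 69.5, 8.73-fold (log2 fold change 3.13, SE 0.101, adjusted p = 3.27e-16). The 1205Lu-R libraries began higher and climbed from 63.4 and 53.8 CPM to 169 and 159, 2.65-fold (log2 fold change 1.41, SE 0.0539, adjusted p = 4.22e-16). The 451Lu-R corin libraries and the 1205Lu-R DMSO libraries overlapped, so PMAIP1 in 1205Lu-R with DMSO already stood where corin brought 451Lu-R.

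BBC3 encodes PUMA, which binds all survival members. Its 451Lu-R libraries read 7.80 and 8.90 CPM under DMSO against 8.39 and 7.60 under corin, and the groups overlapped (log2 fold change 0.05, 95% confidence interval -0.28 to 0.38, adjusted p = 0.796). The 1205Lu-R libraries read 1.72 and 1.60 CPM under DMSO against 2.10 and 2.34. That log2 fold change of 0.35 had an interval from -0.35 to 1.04 (adjusted p = 0.345), so at 17 to 26 estimated counts a library a 2-fold rise could not be told from none.

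BAX, the effector of the list, fell in both lines. The 451Lu-R libraries read 35.9 and 37.8 CPM under DMSO against 21.5 and 21.0 under corin, a fall of 1.61-fold (log2 fold change -0.69, SE 0.0808, adjusted p = 1.72e-07). The 1205Lu-R libraries read 79.7 and 85.2 CPM against 42.1 and 36.8, a fall of 2.21-fold (log2 fold change -1.14, SE 0.0632, adjusted p = 2.90e-13). BAX thus moved against the 3 BH3-only genes that rose, within the same libraries.

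**Figure D2:**
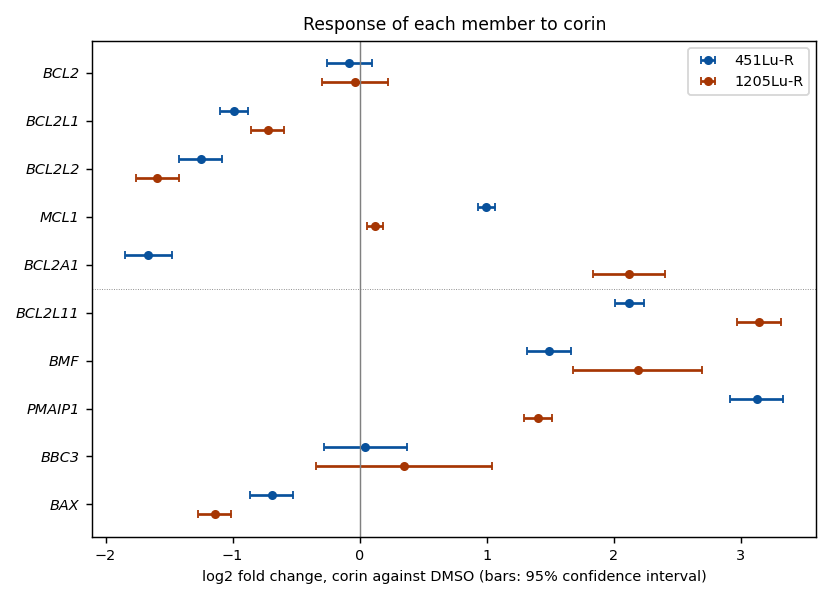
Log2 fold change of each member with corin against DMSO in 451Lu-R and 1205Lu-R, with 95% confidence intervals. Survival members are above the dotted line and death members below it. The intervals of BCL2 and BBC3 include 0 in both lines, and those of BCL2A1 lie on opposite sides of 0.

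Whether a member responded differently in the lines was tested with an interaction term over the 8 libraries, given here as the log2 response of 1205Lu-R minus that of 451Lu-R. It passed for 8 members, 4 of them higher in 1205Lu-R, where 22.6% of the 16062 genes tested were called higher, and 4 lower, where 27.1% were. BCL2A1 had the largest difference, 3.75 (SE 0.167, adjusted p = 4.93e-14). BCL2L11 rose more in 1205Lu-R, by 0.99 (SE 0.11, adjusted p = 1.54e-07). PMAIP1 rose more in 451Lu-R, with a difference of -1.76 (SE 0.143, adjusted p = 1.15e-09). MCL1 also rose more in 451Lu-R (-0.91, SE 0.0469, adjusted p = 5.77e-13), and BAX fell further in 1205Lu-R (-0.49, SE 0.108, adjusted p = 6.77e-04).

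The calls of the other 3 members were less firm. BMF differed by 0.66 (adjusted p = 0.0348), BCL2L1 by 0.22 (adjusted p = 0.0296) and BCL2L2 by -0.38 (adjusted p = 0.0133). DESeq2 gave adjusted p = 0.0984 for BMF, 0.112 for BCL2L1 and 0.0704 for BCL2L2, and each call was also lost in 3 or 4 of the 8 fits that left out a library. With no filter on low counts, that of BMF was lost too (adjusted p = 0.0604). For BMF these were 451Lu-R DMSO replicate 1 (0.59), 1205Lu-R DMSO replicate 2 (0.43) and 1205Lu-R corin replicate 2 (0.68). For BCL2L1 they were 451Lu-R DMSO replicate 1 (0.19), 451Lu-R corin replicate 2 (0.22), 1205Lu-R DMSO replicate 2 (0.18) and 1205Lu-R corin replicate 2 (0.15). For BCL2L2 they were 451Lu-R corin replicate 1 (-0.28), 1205Lu-R DMSO replicate 2 (-0.31) and 1205Lu-R corin replicate 2 (-0.34). With library size only as the scaling, the median difference over all genes moved from -0.013 to 0.196, and that of BCL2L2 to -0.17 (adjusted p = 0.267). BCL2 (0.00, 95% confidence interval -0.30 to 0.31) and BBC3 (0.27, -0.45 to 0.98) did not pass.

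Between the lines with DMSO, all 10 members differed. BCL2L2 (log2 difference 0.29), MCL1 (1.30), PMAIP1 (3.0) and BAX (1.29) were higher in 1205Lu-R, where 38.2% of all genes were. BCL2 (-1.02), BCL2L1 (-0.45), BCL2A1 (-3.45), BCL2L11 (-1.76), BMF (-3.27) and BBC3 (-2.19) were lower, where 37.2% were. The largest adjusted p among the 10 was 6.37e-04, for BCL2L2. The BH3-only genes were thus split between the lines with DMSO, with PMAIP1 8.01-fold higher in 1205Lu-R and BMF 9.64-fold higher in 451Lu-R.

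With corin, MCL1 (0.39), BCL2A1 (0.29), PMAIP1 (1.25) and BAX (0.80) were higher in 1205Lu-R, where 38.0% of all genes were. BCL2 (-1.02), BCL2L1 (-0.23), BCL2L11 (-0.78), BMF (-2.61) and BBC3 (-1.93) were lower, where 39.0% were. BCL2L2 differed by -0.09 (95% confidence interval -0.30 to 0.12, adjusted p = 0.44). The BCL2A1 call (adjusted p = 0.0174) was lost without 451Lu-R corin replicate 2 (0.19), 1205Lu-R corin replicate 1 (0.29) or 1205Lu-R corin replicate 2 (0.29). That of BCL2L1 (adjusted p = 0.00334) was lost without 1205Lu-R corin replicate 1 (-0.15) and with library size only (-0.14). These contrasts share libraries with those of corin against DMSO.

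Fewer members passed where a larger change was required. Under the 2-fold rule, BCL2A1 was called higher and PMAIP1 lower for the difference in response, where 9.34% and 9.46% of all genes were. Between the lines with DMSO, 3 members were called higher and 5 lower under that rule, where 19.3% and 20.4% of all genes were, and with corin these were PMAIP1 alone and 3 members (BCL2, BMF and BBC3), where 18.5% and 19.7% were. With an adjusted p under 0.001 and at least 4-fold, corin raised BCL2L11 and PMAIP1 in 451Lu-R and BCL2L11, BMF and BCL2A1 in 1205Lu-R, where 12.4% and 11.3% of all genes were called higher. No member was called lower under this rule, where 2.72% and 1.43% of all genes were. For the difference in response, BCL2A1 was called higher and no member lower, where 2.43% and 3.13% of all genes were. Between the lines with DMSO, PMAIP1 was called higher and BCL2A1, BMF and BBC3 lower, where 9.38% and 9.35% were, and with corin no member was called higher and BMF was called lower, where 8.17% and 8.24% were.

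The balance of the 10 members was described as the summed CPM per kb of the 5 death members over that of the 5 survival members. No test was run, because the members are not replicates. For 451Lu-R this ratio read 0.215 and 0.202 under DMSO, then 0.734 and 0.830 under corin. For 1205Lu-R it read 0.677 and 0.618, then 0.969 and 0.909. The ratio was thus higher with corin in both lines, by 1.90 (SD 0.141) and 0.54 (SD 0.114) on the log2 scale, and DMSO and corin libraries did not overlap within a line.

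The parts of the ratio moved differently in the lines. In 451Lu-R the survival sum went from 136 ± 6.85 to 87.8 ± 3.80 CPM per kb (mean ± SD, n = 2) and the death sum from 28.4 ± 0.174 to 68.6 ± 2.99. In 1205Lu-R the survival sum went from 94.0 ± 3.30 to 112 ± 0.531 and the death sum from 60.8 ± 1.81 to 105 ± 5.21. BAX made up 49.1% to 55.3% of the death sum with DMSO and 11.5% to 15% with corin. MCL1 made up 18.7% to 20% of the survival sum in 451Lu-R with DMSO and 55.2% to 64% in all other libraries. The size of the shift depended on how members were weighted. With BAX left out it was 2.72 and 1.39, and with the longest transcript as the length it was 1.55 and 0.28, in 451Lu-R and 1205Lu-R. The sums treat an RNA of each member as equal and say nothing of protein. They also leave out other death genes of the family. In 1205Lu-R with corin, BAD went from 23.1 to 7.39 CPM per kb, BAK1 from 19.7 to 12.8 and BID from 3.57 to 3.47. BOK went from 0.64 to 3.32 there, BIK from 0 to 2.05 and HRK from 0.018 to 0.15. A ratio with these genes was not computed, so the shift describes the listed members only.

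**Figure D3:**
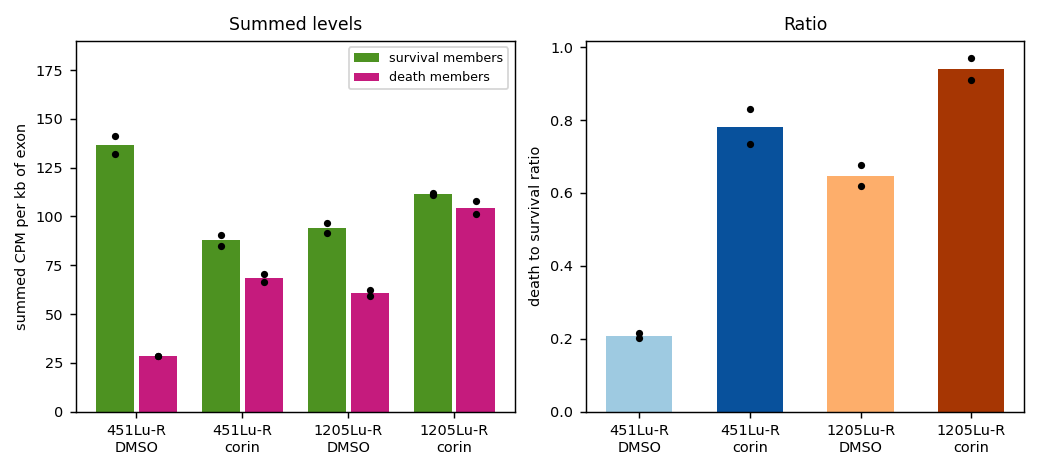
The left panel plots summed CPM per kb of exon of the 5 survival and the 5 death members and the right panel the ratio of the sums, where bars are means of 2 libraries and points are the libraries. The ratio lies at 0.202 to 0.215 in 451Lu-R with DMSO and at 0.909 to 0.969 in 1205Lu-R with corin, and corin libraries are above DMSO libraries in each line.

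Other genes of the apoptosis pathway were described by lists. As a background for the list counts, corin raised 41.3% and lowered 38.6% of all 451Lu-R genes tested. The matching 1205Lu-R shares were 40.4% and 37.8%. Whether any list departed from these shares was not tested. Of 10 tested genes of the wider BCL2 family, 3 rose and 4 fell with corin for 451Lu-R, whereas 4 rose and 3 fell for 1205Lu-R. BIK, another BH3-only gene, had 1 estimated count over both 451Lu-R DMSO libraries and 283 with corin, a ratio of 267 with an exact binomial interval from 47.5 to 10583 that covers counting error only. In 1205Lu-R it had 0 counts with DMSO and 40 with corin, at least 14.0-fold higher than the floor of 3 counts over the group. BOK, a BAX-like effector, rose in 1205Lu-R (log2 fold change 2.30, SE 0.222, adjusted p = 4.06e-09), and its value of -0.07 in 451Lu-R did not pass (interaction 2.33, adjusted p = 6.14e-09). BAK1, the effector named above beside BAX, fell in 1205Lu-R (-0.69, SE 0.0753, adjusted p = 3.05e-08). Its value of -0.12 in 451Lu-R did not pass (adjusted p = 0.159). BAD, a BH3-only gene that binds BCL2, BCL-XL and BCL-W, fell in both lines (-1.18 and -1.71).

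Downstream of the mitochondrion, 6 of 12 tested apoptosome and caspase genes rose and 2 fell for 451Lu-R, while 3 rose and 5 fell for 1205Lu-R. CYCS, which encodes the cytochrome c that BAX and BAK1 release, rose in both (0.83 and 0.81). CASP9, the initiator caspase that cytochrome c activates through APAF1, rose in both as well (0.74 and 1.47). CASP2 (-0.82) and CASP8 (-0.58) fell in 1205Lu-R and did not pass in 451Lu-R (-0.11 and 0.03). Of the IAP family (inhibitors of apoptosis), 2 of 6 tested genes rose and 3 fell for 451Lu-R, while 1 of 6 rose and 4 fell for 1205Lu-R. BIRC5 (survivin, also a mitotic protein) fell in both (-1.68 and -0.76). BIRC3 rose in 1205Lu-R, from 6.60 and 5.08 CPM to 29.7 and 28.4 (2.23, SE 0.127, adjusted p = 4.82e-13), and was at or below 0.104 CPM in all 451Lu-R libraries.

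In the death receptor pathway, 4 of 7 tested genes rose and 2 fell for 451Lu-R, while 1 of 8 rose and 4 fell for 1205Lu-R. TNFRSF10B, the TRAIL receptor DR5, rose in both (2.04 and 0.73). FAS (-1.13 and -0.74) and CFLAR (-1.13 and -1.34), which encodes the caspase-8 inhibitor FLIP, fell in both. Among 7 protein partners and ligases of the family, 4 rose and 2 fell for 451Lu-R, while 3 rose and 2 fell for 1205Lu-R. DYNLL2, which encodes the dynein light chain that binds BMF, rose in both (1.21 and 1.04).

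Of 11 transcription factors known to act on members, 4 rose and 4 fell for 451Lu-R, while 6 rose and 4 fell for 1205Lu-R. FOXO1, a forkhead factor known to act on BCL2L11, rose in both (2.70 and 2.98). FOXO3, also a forkhead factor of this list, did not rise. Its 451Lu-R value was -0.05 (adjusted p = 0.232). The 1205Lu-R value was a small fall of -0.25 (adjusted p = 4.25e-04). The part of either factor in the BCL2L11 change was not tested. NFKB1, a subunit of a regulator of BCL2A1, fell in both (-2.10 and -1.40). List medians of the log2 fold change ran from -0.27 to 0.16 for 451Lu-R and from -0.41 to 0.56 for 1205Lu-R, beside 0.03 over all genes tested. Every change named in these paragraphs on the lists passed an adjusted p under 0.05 except the 451Lu-R values of BOK, BAK1, CASP2, CASP8 and FOXO3.

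**Figure D4:**
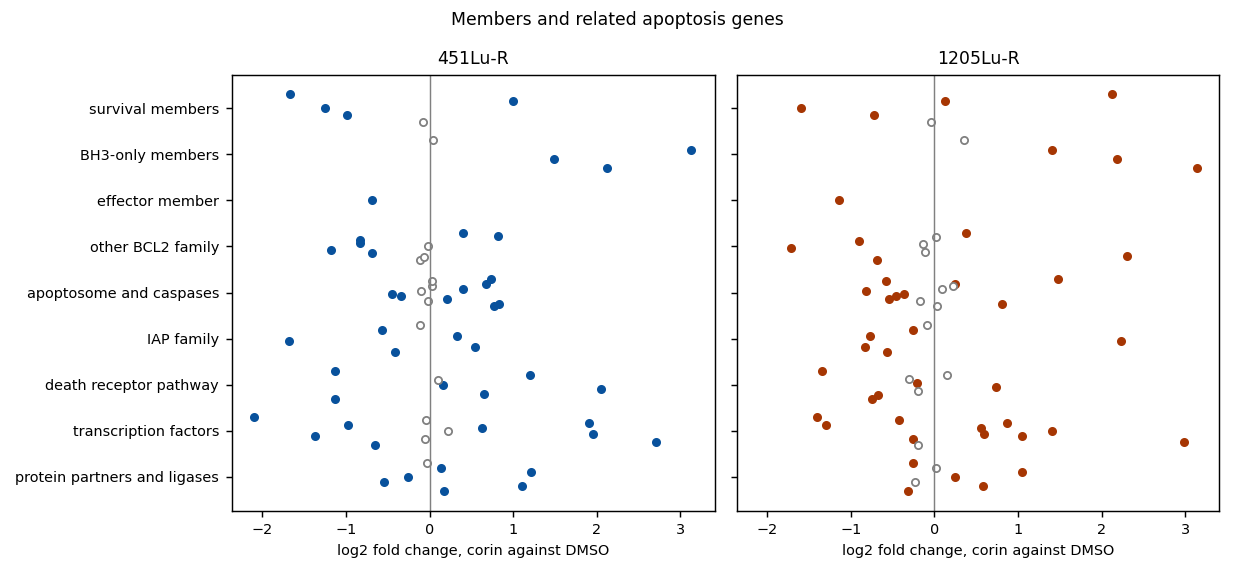
Log2 fold change with corin against DMSO of each tested gene of the members' groups and of the related lists in 451Lu-R and 1205Lu-R. Filled points passed an adjusted p under 0.05 and open points did not, and genes with 3 or fewer counts over the DMSO libraries of a line are not drawn. BCL2L11, BMF and PMAIP1 lie to the right in both lines, while each related list has points on both sides of 0.

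Genes whose levels followed a member most closely were named by Pearson's r of log2 CPM over the 8 libraries, among 14432 genes, as a description with no test. Those nearest BCL2A1 were TKFC (r = 0.994), MIR3681HG (0.989) and GPX4 (0.989). For PMAIP1 they were ARHGAP45 (0.999), MAPK8IP1 (0.998) and ELAVL2 (0.998), and for BCL2L11 they were ARVCF (0.999), H1-2 (0.998) and ETV3 (0.998). These libraries form 4 groups of 2, so each r mostly compares 4 group means, and among so many genes some come close to 1.

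The members lie on 7 chromosomes of GRCh38. BCL2L11 is at chr2:111119378-111168444 and BCL2L2 at chr14:23298790-23311751, both on the plus strand. PMAIP1 (chr18:59899996-59904305, plus strand) and BCL2 (chr18:63123346-63320128, minus strand) share a chromosome, as do BMF (chr15:40087890-40108892) and BCL2A1 (chr15:79960892-79971196), both on the minus strand, and BBC3 (chr19:47220822-47232766, minus strand) and BAX (chr19:48954815-48961798, plus strand). MCL1 is at chr1:150560895-150579738 and BCL2L1 at chr20:31664452-31723989, both on the minus strand. BCL2A1 fell and BMF rose in 451Lu-R, whereas in 1205Lu-R both rose, by 2.12 and 2.19 on the log2 scale. BAX fell and PMAIP1 rose in both lines, while BBC3 and BCL2 did not pass the test.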

How the data were processed

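RNA-Seq was analysed for 8 libraries, 2 per group. For these, the authors used Trimmomatic for trimming and Salmon, with GENCODE 32 transcripts, for quantification, and deposited unnormalized estimated counts (expected counts) summed per gene. Versions are not given in the sources used here. For PLX4032 plus corin against PLX4032, the deposited tables hold only the authors' own log2 fold changes and adjusted p-values, which were not used. Of the 34228 gene IDs, 34052 were matched to GENCODE 44 (GRCh38) symbols, exon lengths and overlaps.

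Estimated counts were rounded and tested with edgeR 4.0.16 in R 4.3.3 (filterByExpr on group, TMM, glmQLFit, glmQLFTest, 2-sided, Benjamini-Hochberg adjustment over all genes tested). Corin was compared with DMSO in each line on its 4 libraries, and the lines and the interaction on all 8. Every adjusted p in the text is from edgeR unless DESeq2 is named. Standard errors are the log2 fold change over the square root of F. Genes were called at an adjusted p under 0.05, also with a change of at least 2-fold. CPM used library totals, and CPM per kb the summed exon length.

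TMM factors ran from 0.967 to 1.04. The chi-square between replicates, over its degrees of freedom, was 1.34 to 1.40, so none was a duplicate. The fits were run on simulated counts in which few genes changed, as many up as down. That cannot show how the fits behave in these contrasts, where many more genes were called. Alternatives were DESeq2 1.42.0, library size only or RLE in place of TMM, a filter at 1 CPM on average or none, the replicate number as a block, 1 fit of all libraries, stricter calls and leaving out each library. The sum of BCL2L2 with BCL2L2-PABPN1 was added after the data were seen.

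The members and lists were chosen with earlier results of these data known. From each list, up to 2 genes with the largest rise and 2 with the largest fall per line, among those called with a mean of at least 1 CPM, could be named, and the text gives some of these. MITF, BAK1, FOXO3, BID and HRK, and the values of named genes in the other line and of overlapping genes, were added after their values were seen. Likeness was named for the 3 members with the largest interaction. Promoters are from RefSeq (GRCh38.p14). Protein sequences were not used here, and 1 gene of the transcription factor list is not reported here.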

Additional observations from a re-analysis of the deposited data

Results flagged for a closer look

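Each result below is a response to corin that differed between the cell lines by the interaction term of edgeR at an adjusted p under 0.05, given as the log2 response of 1205Lu-R minus that of 451Lu-R. Among the members these were BCL2A1 (3.75), BCL2L11 (0.99), BMF (0.66), BCL2L1 (0.22), BCL2L2 (-0.38), BAX (-0.49), MCL1 (-0.91) and PMAIP1 (-1.76). BCL2A1 moved in opposite directions in the lines, and the other 7 moved in one direction by different amounts. Those of BMF, BCL2L1 and BCL2L2 were lost with DESeq2.

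Among the other genes named with a response, the effector BOK (2.33), the initiator caspase CASP9 (0.70), survivin BIRC5 (0.88), NFKB1 (0.66) and MITF (2.38) had a higher difference in 1205Lu-R. So did BID (0.53) and HRK (2.69, from a 1205Lu-R DMSO mean of 0.121 CPM). BAD (-0.57), BAK1 (-0.61), CASP2 (-0.75), CASP8 (-0.65), FOXO3 (-0.24), TNFRSF10B (-1.35) and DYNLL2 (-0.21) had a lower one. The 4 markers of undifferentiated melanoma were lower too, with AXL at -5.68, NGFR at -3.45, WNT5A at -3.34 and EGFR at -2.35. The size for AXL rests on a 451Lu-R DMSO mean of 0.111 CPM. The difference of BIRC3 (5.36, SE 1.9) rests on a 451Lu-R level at or below 0.104 CPM, so its size depends on the prior count of the fit and is not a bound.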

How the results depend on the processing

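Under the alternatives, 622 of 642 values of single members kept their side of the threshold and 20 lost the call. Of the 556 values of called members, 0 turned in sign. Of the 86 of members that were not called, 9 did, for BBC3 in 451Lu-R (-0.06 to 0.13), BCL2 in 1205Lu-R (-0.17 to 0.06) and BCL2 in the difference between lines (-0.11 to 0.21). The lost calls were those of BCL2L1, BCL2L2 and BMF in the difference between lines and of BCL2L1 and BCL2A1 between lines with corin. Each called response to corin within a line held under every alternative fit, including for MCL1 in 1205Lu-R (log2 fold change 0.08 to 0.20).

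With an adjusted p under 0.001 and at least 4-fold, 2 members were called higher and 0 lower with corin for 451Lu-R (12.4% and 2.72% of all genes tested), 3 and 0 for 1205Lu-R (11.3% and 1.43%), 1 and 0 for the difference in response (2.43% and 3.13%), 1 and 3 between lines with DMSO (9.38% and 9.35%), and 0 and 1 between lines with corin (8.17% and 8.24%). With at least 2-fold, 2 were lower in 451Lu-R (13.3%), 1 higher and 1 lower for the difference in response (9.34% and 9.46%), and 1 higher and 3 lower between lines with corin (18.5% and 19.7%). DESeq2 called 2 members higher for the difference in response, beside 4 in the main fit, where 22.6% of all genes were called higher.

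The log2 change of the death to survival ratio in 451Lu-R was 1.55 with the longest transcript, 2.72 without BAX, 2.77 without MCL1 and 1.40 for CPM without length. For 1205Lu-R it was 0.28 with the longest transcript, 1.39 without BAX, and 0.91 for CPM without length. These follow from the weights given to members.

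Same-numbered libraries deviated from their group means with a correlation of -0.021 for 451Lu-R and -0.007 for 1205Lu-R. Replicates differed little beyond counting error (chi-square over its degrees of freedom 1.34 to 1.40), so this check cannot exclude that the numbers pair the libraries. With the replicate block, 4 members rose and 4 fell for 451Lu-R, while 5 rose and 3 fell for 1205Lu-R. The block changed no call of a member. In the main fit, 41.3% of all genes rose and 38.6% fell for 451Lu-R, and 40.4% and 37.8% for 1205Lu-R.

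With 2 libraries a group, the spread was estimated mostly from all genes together. Where a library was left out, the lone library was assumed to vary like the others. Depth limits BMF and BBC3 in 1205Lu-R most, at 20 and 14 estimated counts in the DMSO libraries for BMF and 17 to 26 in all its libraries for BBC3.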
